A study of Mus musculus with 17 samples.

Results

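The Wnt ligands, their Frizzled receptors and the secreted proteins that tune them were followed through tumours grown from the mouse ovarian cancer line ID8. The set was chosen by symbol alone: every gene of the deposited count table named as a Wnt, a Frizzled (Fzd), a secreted frizzled-related protein (Sfrp), a Dickkopf (Dkk 1 to 4) or an R-spondin (Rspo). This took 41 of 43629 genes, with 19 Wnt, 10 Fzd, 4 Sfrp, 4 Dkk and 4 Rspo genes. Sequencing of total RNA gave 17 libraries, which fall into 8 groups. The labels describe the line (1 library) as untreated mouse ovarian surface epithelium, grown in culture. Tumours had been raised by injecting its cells. The orthotopic tumours (3 libraries) grew on the ovary after injection into the right ovarian bursa. The subcutaneous tumours (2 libraries, numbered 2 and 3) grew under the skin, which one label places at the scruff and the protocol at the flanks. The first and the second ascites tap (3 libraries each) are peritoneal fluid with its cells, drawn in turn by syringe from mice whose orthotopic tumours had spread, and the tumours on the intestine (3 libraries) are solid secondary growths of the same model. Healthy ovary and healthy intestine (1 library each) are untreated C57BL6 tissue. No genetic change is named for any group, and ages are not given. All tumour groups descend from 1 line, and the solid samples hold host tissue as well as ID8 cells.

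Wnt proteins are lipid-modified secreted ligands that bind Frizzled receptors. In the canonical branch they act with the co-receptors Lrp5 and Lrp6 to stabilise beta-catenin, which then switches on targets such as Axin2 and Lgr5. Sfrp proteins bind Wnts outside the cell, Dickkopf proteins mostly block the co-receptors, and R-spondins raise the sensitivity of a cell by taking the ubiquitin ligases Znrf3 and Rnf43 off the surface. In the ovary, Wnt4 and Rspo1 act in gonad development, and in the intestine, Wnt ligands and R-spondins maintain the crypt stem cells.

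Levels are given in CPM, which sets the reads of a gene against the scaled total of its library. The totals lay between 12031221 and 38902048 counts, and the median library held 27342134. The 3 libraries subcutaneous tumour 3, first tap 3 and second tap 1 stood apart, with 32775 to 33393 genes with a count against 21157 to 26838 in the other 14. They also held 179.5 to 550 CPM of olfactory receptor genes against 7.74 to 122.8. The 5 ovarian surface markers were all detected in the line (Msln, Upk3b, Wt1, Lrrn4 and Krt19, 1850 CPM in sum). The 5 intestinal epithelial markers (Vil1, Cdx1, Cdx2, Fabp2 and Muc2) summed to 4790 to 12400 CPM in the tumours on the intestine and 9540 in healthy intestine, against at most 15.5 elsewhere. The labels do not say which libraries came from 1 animal, and both taps may share animals, so p-values measure only the spread between these samples.

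A gene was called where its adjusted p was under 0.05 in edgeR's quasi-likelihood test, with Benjamini-Hochberg adjustment over the 22671 genes tested. Of the 41 genes, 38 were tested. Dkk1, Wnt3a and Wnt8a were too low, and none of these 3 passed 0.5 CPM in more than 1 library. Calls were made for 17 genes in at least 1 of 10 comparisons between groups, and 24 genes had none. The matching share over all genes tested was not counted. In single comparisons that share lay between 0% and 18.3%. The map of all 41 genes by library shows where each was high. The healthy ovary and subcutaneous tumour 3 were each the highest library for 9 genes, orthotopic tumour 1 for 7 and orthotopic tumour 2 for 6. How often each library was the highest over all genes was not counted. Of the 14 genes that never reached 6.5 CPM, 7 were highest in subcutaneous tumour 3, which is 1 of the 3 libraries with many genes detected. The part of that excess in their levels was not tested.

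**Figure D1:**
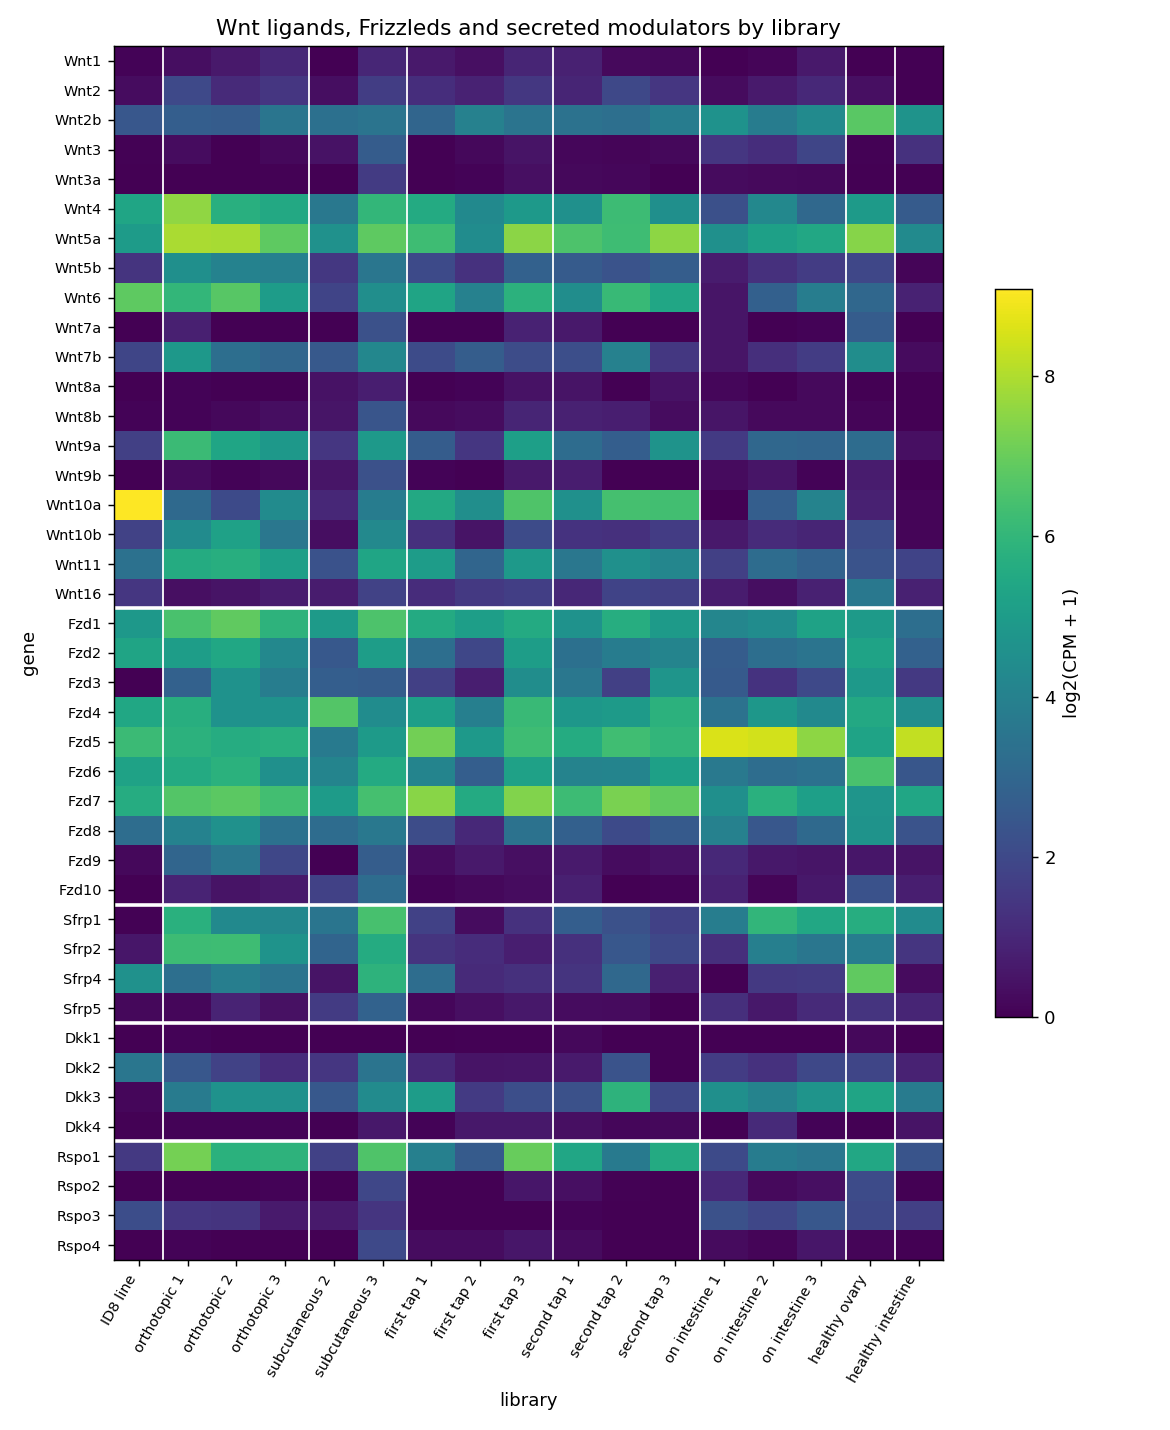
Level of each of the 41 genes (rows, by family) in each of the 17 libraries (columns, by group), as log2(CPM + 1), with brighter colours for higher levels. Wnt10a is brightest in the ID8 line, Fzd5 in the tumours on the intestine and healthy intestine, and the Rspo3 row is at or near 0 in all 6 ascites libraries.

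The ligands that dominated differed between the cultured line and the tumours. Summed over all 19 Wnt genes per kilobase of exon, the line held 292 CPM per kb, and Wnt10a, a ligand known from tooth and hair development, made up 75.5% of it. Wnt6, which lies beside Wnt10a in the genome, made up another 17.7%. The sum was 78.4 to 164 CPM per kb in orthotopic tumours, led by Wnt4 in 1 and by Wnt6 in the other 2. In the 6 ascites libraries it was 31.1 to 121, with Wnt10a in the lead in 5 and Wnt5a, the best known ligand of the branches that do not use beta-catenin, in second tap 1. Tumours on the intestine held 12.4 to 31.5 CPM per kb and healthy intestine 11.3, where Wnt2b made up 51.0%. Healthy ovary held 73.3, led by Wnt2b with 35.4%, and the subcutaneous tumours differed widely from each other, at 13.5 and 86.6. These values describe the libraries, and no test was made on the sums.

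**Figure D2:**
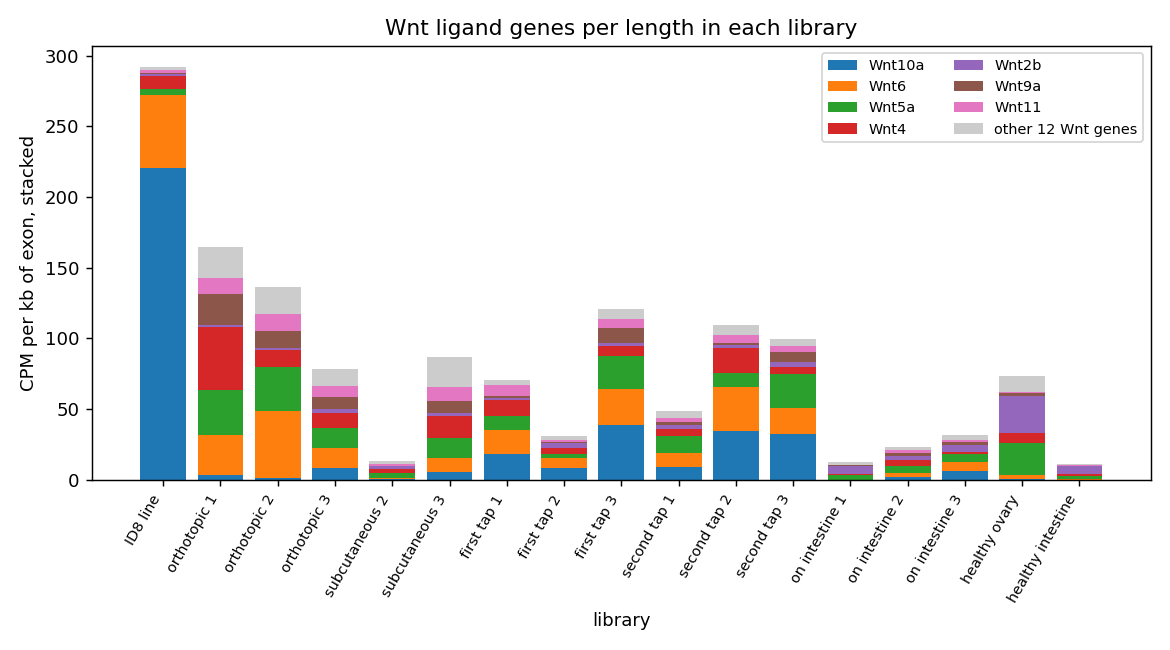
Stacked CPM per kilobase of exon of the 19 Wnt genes in each library, with the 7 named genes in colour and the other 12 in grey. The ID8 line reaches 292, mostly Wnt10a, while the tumours on the intestine stay between 12.4 and 31.5.

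The leading receptors and modulators also differed between groups. Per kilobase, Fzd7 led the Frizzled genes in the line and all 6 ascites libraries, and Fzd1 or Fzd7 did in the orthotopic tumours. Fzd6 led in healthy ovary, and Fzd5 in all 3 tumours on the intestine and healthy intestine. The lead in the line was narrow, with 20.0% for Fzd7, 19.7% for Fzd2 and 19.5% for Fzd5. The Fzd7 share was 38.0% to 47.2% in the first taps and 39.7% to 48.7% in the second. Fzd5, which is needed for Paneth cell maturation in crypts, made up 51.2% to 75.7% of Frizzled expression in the tumours on the intestine and 70.7% in healthy intestine, against 7.3% to 13.4% in orthotopic tumours. The Sfrp sum was 18.1 to 49.1 CPM per kb in orthotopic tumours and 1.04 to 4.83 in ascites, and these ranges did not overlap. Among the R-spondins, Rspo1 led everywhere but in the line, where Rspo3 led a sum of 2.08.

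Against orthotopic tumours, ascites held less of 5 of the 38 genes tested and more of none. They were the ligand Wnt10b, the receptor Fzd9, the inhibitors Sfrp1 and Sfrp2, and the agonist Rspo3. Over all genes tested, 4.51% were called in either direction, 2.67% as lower and 1.84% as higher. Without the 3 libraries that stood apart, which include 2 of the ascites libraries, 11 genes of the set were called. The share over all genes in that fit is not given here. The median log2 fold change was -0.96 over the 38 genes and 0.15 over all genes tested. In bulk RNA, fewer cells of a type and less RNA per cell cannot be told apart.

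Rspo3 (ENSMUSG00000019880), an R-spondin known from endothelial and stromal cells, was nearly absent from ascites. Orthotopic tumours 1 to 3 had 1.71, 1.60 and 0.58 CPM, and the 6 ascites libraries had a lowest of 0, a median of 0 and a highest of 0.0592 CPM. Only 2 reads were counted in ascites, both in second tap 1. The ratio of the means was 120, with an exact 95% Poisson interval of 33.2 to 990 that covers counting error only. The fitted log2 fold change was -6.97 ± 0.88 (SE), with an adjusted p of 0.00399 in edgeR's quasi-likelihood test, and it depends on the prior count of the fit. Groups did not overlap, and the call held in each of 17 alternative settings.

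Both Sfrp1 and Sfrp2, which bind Wnts outside the cell, fell. Sfrp2 stood at 74.7, 76.0 and 24.6 CPM in orthotopic tumours 1 to 3 and between 0.689 and 4.49 CPM in ascites, with a median of 1.49. Its log2 fold change was -4.98 ± 0.73, adjusted p 0.00487 in edgeR's quasi-likelihood test. Sfrp1 (ENSMUSG00000031548) had 53.5, 19.1 and 17.7 CPM in orthotopic tumours, compared with a lowest of 0.227, a median of 2.40 and a highest of 5.60 CPM in ascites. This was a log2 fold change of -3.70 ± 0.73, adjusted p 0.0176 in the same edgeR test. Every orthotopic library was above every ascites library for both genes. The Sfrp1 call was lost without orthotopic tumour 1 (adjusted p 0.0943 in the edgeR test), and with the second tap alone both calls were lost (0.143 for Sfrp1 and 0.0525 for Sfrp2). The other Sfrp genes, Sfrp4 and Sfrp5, were not called.

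Wnt10b, a beta-catenin ligand known for favouring bone over fat, was at 19.7, 35.9 and 11 CPM in orthotopic tumours. In ascites it ranged from 0.378 to 3.25 CPM around a median of 1.46. The log2 fold change was -3.73 ± 0.87. Fzd9, a Frizzled studied mainly in brain and bone, had 6.72, 11.2 and 2.79 CPM in orthotopic tumours; ascites ranged from 0.219 to 0.592 CPM, with a median of 0.337 and a log2 fold change of -4.20 ± 0.98. Both had an adjusted p of 0.0334 in edgeR's quasi-likelihood test, and neither gene's groups overlapped. These calls were the least stable of the 5. Without orthotopic tumour 1 the count of called genes was 2, and it was 3 without orthotopic tumour 2, first tap 1, first tap 2 or any 1 of the second taps.

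Marker sums of other cell types also differed in this comparison. The 7 fibroblast markers summed to 2040 to 4390 CPM in orthotopic tumours and 166 to 962 in ascites. The 6 endothelial markers summed to 267 to 451 CPM against 19.1 to 48.2, with Tie1 and Emcn at 0 in first tap 1 and in second taps 2 and 3. The 5 macrophage markers found in the table went the other way, at 202 to 304 CPM in orthotopic tumours and 864 to 5490 in ascites. The fibroblast marker Lum was at 0 in first tap 2, while Dcn alone ranged from 52.7 to 839.5 CPM in ascites, with a median of 476. The endothelial marker Kdr alone ranged from 6.16 to 38.7 CPM there. The sums in ascites thus rest unevenly on single genes and are not counts of cells. The part of these cells in the 5 calls was not tested. In the line, which had 1140 CPM of fibroblast markers, 5.46 of macrophage markers and 0.98 of endothelial markers, Rspo3 stood at 3.47 CPM and Sfrp2 at 0.477.

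**Figure D3:**
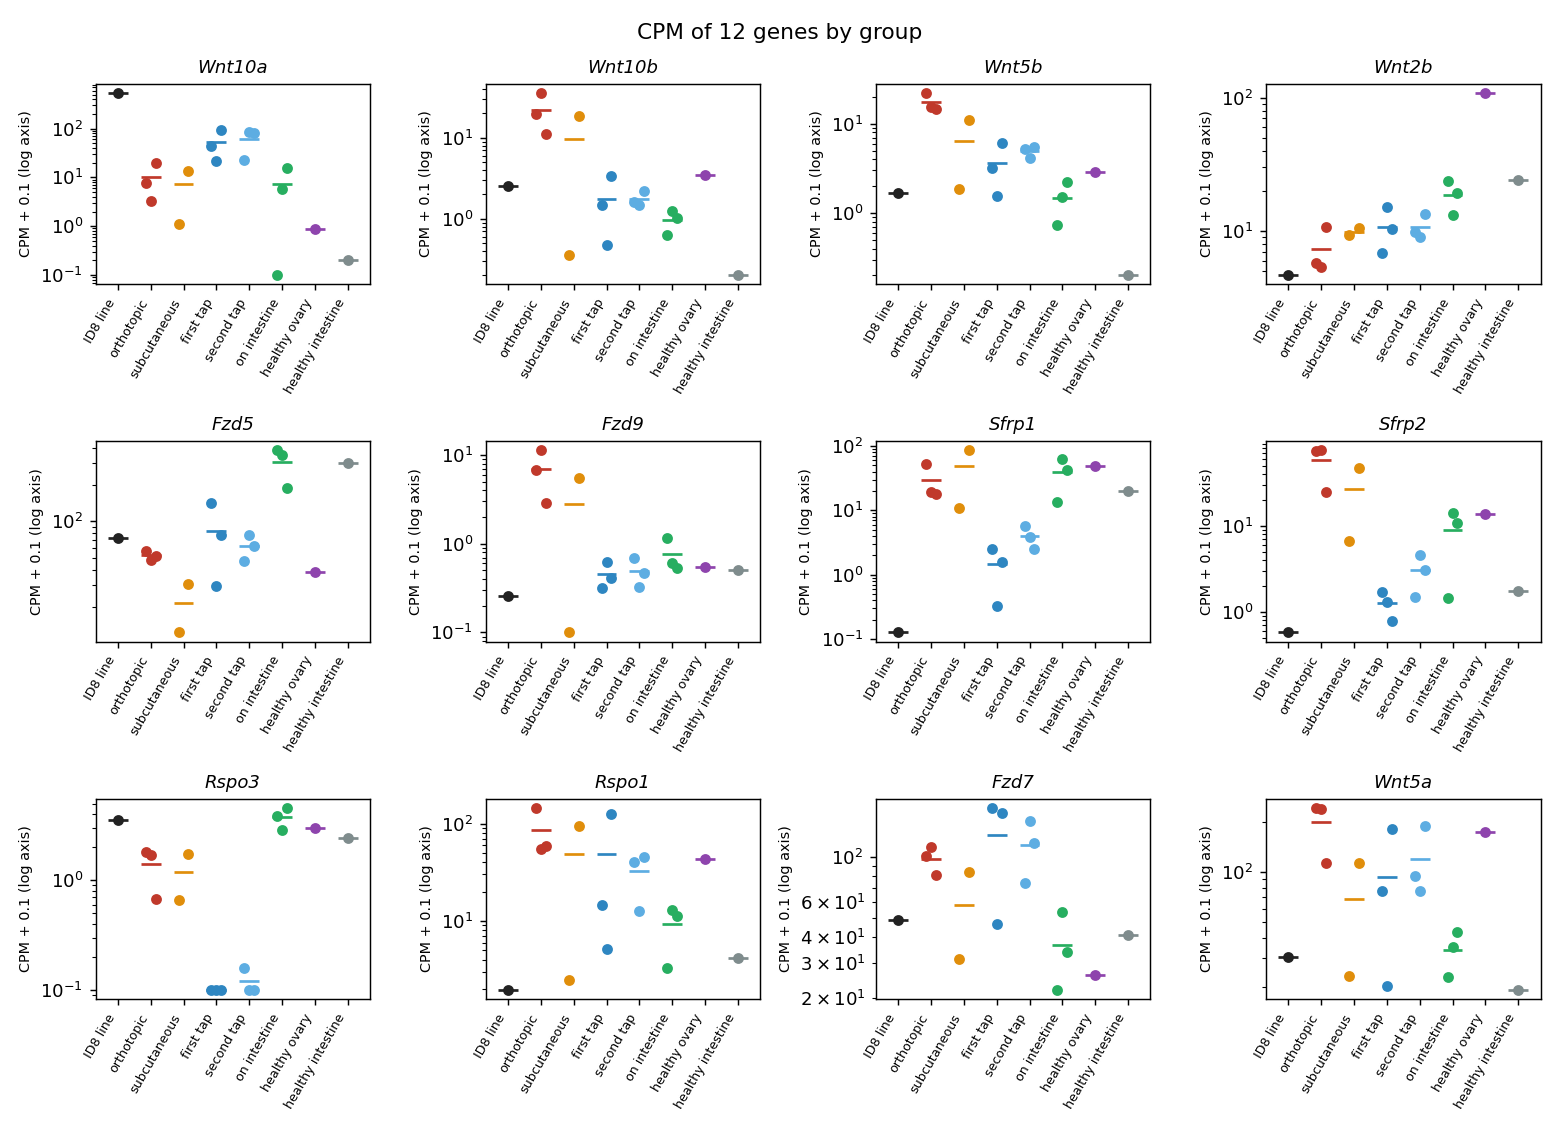
CPM + 0.1 (log axis) of 12 genes in each library (points), with bars at the group means and groups along the x axis. Rspo3, Sfrp1, Sfrp2, Wnt10b and Fzd9 are lower in both ascites taps than in the orthotopic tumours, while Fzd5 is highest in the tumours on the intestine and healthy intestine.

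The start regions of 2 of these 5 genes, which fell together in ascites, are shown for their sequence context. Each is the 250 bases before the annotated start in RefSeq (GRCm38.p6), printed 5′ to 3′ in the direction of the gene. The Sfrp2 window is chr3:83766071-83766320 on the plus strand, and the Wnt10b window is chr15:98778151-98778400 on the minus strand. Capitals mark matches, on either strand, to any of 5 motifs: the TCF/LEF cores CTTTGAT and CTTTGTT, the GC box GGGCGG, the TATA box TATAAA, and the E-box CACCTG that Snail proteins read.
Sfrp2: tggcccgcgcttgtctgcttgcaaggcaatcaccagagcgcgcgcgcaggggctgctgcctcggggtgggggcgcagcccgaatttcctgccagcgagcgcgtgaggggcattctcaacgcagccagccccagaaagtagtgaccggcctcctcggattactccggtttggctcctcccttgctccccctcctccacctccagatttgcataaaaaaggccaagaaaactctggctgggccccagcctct
Wnt10b: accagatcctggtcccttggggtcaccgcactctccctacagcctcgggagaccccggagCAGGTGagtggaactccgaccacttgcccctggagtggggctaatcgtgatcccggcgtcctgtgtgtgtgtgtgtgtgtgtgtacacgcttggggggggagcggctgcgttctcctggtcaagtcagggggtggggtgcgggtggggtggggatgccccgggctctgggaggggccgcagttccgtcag
The Sfrp2 window held none of these letters, and the Wnt10b window held 1 E-box. Of 32851 such windows in RefSeq, 3.21% held CTTTGAT, 5.03% CTTTGTT, 32.7% GGGCGG, 12.4% TATAAA and 17.2% CACCTG. Windows were found for 27 of the 41 genes, and GGGCGG was in at least 1 window of 20 of these, CACCTG of 8, TATAAA of 4, and each TCF/LEF core of 2. These are counts of genes, over 30 windows, while the percentages before them are shares of windows.

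Between the second and the first ascites tap no gene of the set was called. None passed edgeR's test, none had an unadjusted p under 0.05, and DESeq2 also called none. Over all genes tested the share called was 0%. The smallest unadjusted p of the set was 0.107, for Rspo3, where only second tap 1 had reads. Sfrp1 was 2.38, 0.227 and 1.45 CPM in the first taps and 5.60, 3.72 and 2.42 in the second. Its log2 fold change was 1.52 ± 0.89 (adjusted p 1 in edgeR's quasi-likelihood test).

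Tumours on the intestine differed from orthotopic tumours in 10 of the 38 genes. Wnt4, Wnt5a, Wnt5b, Wnt7b, Wnt10b, Wnt11, Fzd1 and Fzd6 were lower, and Wnt2b and Fzd5 were higher. Across all genes tested, 15.5% were called, 10.4% as higher and 5.13% as lower. When the 3 libraries that stood apart, none of them in this comparison, were left out of the fit, 16 genes of the set were called. The share over all genes in that fit is not given here. The median log2 fold change was -1.14 over the 38 genes and 0.06 over all genes tested. By family, 6 of 17 Wnt genes tested were lower and 1 higher, 2 of 10 Fzd genes lower and 1 higher, and no Sfrp, Dkk or Rspo gene was called.

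Wnt5b (ENSMUSG00000030170), a close relative of Wnt5a, was at 22.1, 15.2 and 14.7 CPM in orthotopic tumours 1 to 3 and at 0.63, 1.4 and 2.1 CPM in tumours on the intestine 1 to 3. The log2 fold change was -3.62 ± 0.73, with an adjusted p of 0.00802 in edgeR's quasi-likelihood test. The groups were far apart, and this call held under all 12 alternatives. Wnt5a itself stood at 244, 241 and 112 CPM against 22.9, 35.1 and 43.3, a log2 fold change of -2.56 ± 0.76 (adjusted p 0.0404 in the edgeR test). Its groups did not overlap, but its call was lost without any 1 of the 6 libraries, with adjusted p from 0.0522 to 0.135.

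The other ligands of this group also separated without overlap. Wnt10b, described above in orthotopic tumours, had 0.525, 1.15 and 0.925 CPM in tumours on the intestine, a log2 fold change of -4.65 ± 1.2. Wnt4, which acts in Müllerian duct and ovary development, had 189, 51.7 and 44.3 CPM in orthotopic tumours and 3.67, 17.9 and 7.51 on the intestine. The high value of orthotopic tumour 1 raised the Wnt4 mean, and without that tumour its adjusted p was 0.112 in the edgeR test. Wnt7b had 27.6, 8.81 and 6.95 CPM against 0.42, 1.36 and 2.1. Tumour on the intestine 1, the library with the fewest counts, had only 4 reads of Wnt7b and 5 of Wnt10b. Wnt11, known for guiding cell movements in the early embryo, had 47.9, 51.7 and 34.3 CPM against 2.31, 8.23 and 6.33. The log2 fold changes were -3.29 for Wnt4, -3.44 for Wnt7b and -2.98 for Wnt11. Adjusted p for these 4 genes lay between 0.0234 and 0.0278 in edgeR's quasi-likelihood test.

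Wnt2b, a ligand made by stromal cells of the gut, was the ligand called higher. It had 5.63, 5.29 and 10.6 CPM in orthotopic tumours and 23.6, 13.1 and 19.2 on the intestine, a log2 fold change of 1.37 ± 0.39 (adjusted p 0.0332 in the edgeR test). The groups did not overlap, and the call was lost in 9 of 12 alternatives. Healthy intestine had 24.2 CPM, above all 3 tumours on the intestine.

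Among the receptors, Fzd5 (ENSMUSG00000045005) had 56.6, 48.5 and 52.2 CPM in orthotopic tumours and 382, 352 and 186 CPM on the intestine, with 303 CPM in healthy intestine. The log2 fold change was 2.55 ± 0.54, adjusted p 0.00987 in edgeR's quasi-likelihood test. The call was lost without orthotopic tumour 2 (adjusted p 0.0576) and kept in the other 11 alternatives. Fzd1 went down from 89.5, 115 and 58.1 CPM to 17, 20.6 and 36.8. Fzd6, a Frizzled of planar cell polarity, went from 46.6, 55.0 and 22.5 CPM to 11.7, 8.40 and 9.43. Their log2 fold changes were -1.82 ± 0.47 and -2.08 ± 0.64, with adjusted p of 0.0236 and 0.0468 in the edgeR test, and neither overlapped.

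The count of 10 rested on few libraries. It was 2 without orthotopic tumour 1 or without tumour on the intestine 1, 1 without orthotopic tumour 2, 3 without tumour on the intestine 2 and 5 without tumour on the intestine 3. Markers of host tissue moved with the comparison. The intestinal epithelial markers summed to 3.56 to 3.68 CPM in orthotopic tumours against the 4790 to 12400 given above, with Cdx2 at 0 in orthotopic tumours 1 and 2, and the 5 smooth muscle markers to 87.1 to 144 CPM against 915 to 1350. Fibroblast markers were 2040 to 4390 CPM in orthotopic tumours and 610 to 2460 on the intestine. The 5 ovarian surface markers summed to 554 to 1760 CPM in orthotopic tumours and 715 to 979 on the intestine, so their ranges overlapped. Healthy intestine, which holds no tumour, had 361 CPM of the same markers. Their mean log2(CPM + 1) was 6.02 to 8.04 in orthotopic tumours, 4.73 to 6.97 on the intestine and 4.0 in healthy intestine. The part of host tissue in these calls was not tested.

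**Figure D4:**
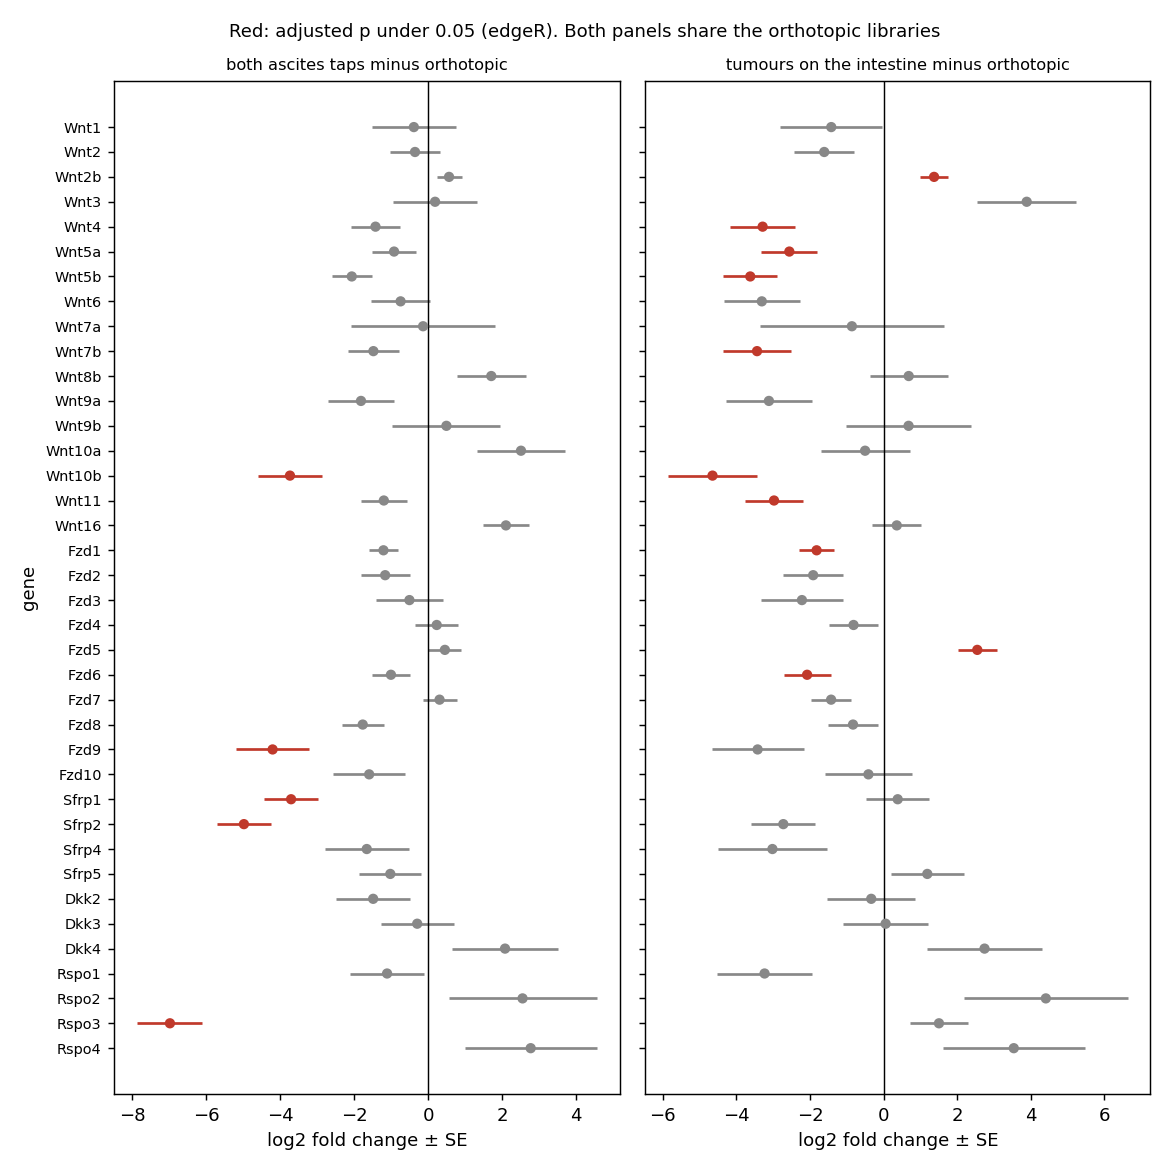
Fitted log2 fold change (points) with its SE (bars) of the 38 genes tested, for both ascites taps (left) and tumours on the intestine (right) against the same 3 orthotopic tumours, with calls in red. The left panel has 5 calls, all lower, and the right has 8 lower and 2 higher.

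Start regions are shown for 3 of these genes, a ligand pair that fell and the receptor that rose, from the same RefSeq table and with the same motifs in capitals. The Wnt5b window is chr6:119449387-119449636 on the minus strand and is 1 of several for that gene. The Wnt11 window, also 1 of several, is chr7:98834862-98835111 on the plus strand, and the Fzd5 window is chr1:64737751-64738000 on the minus strand.
Wnt5b: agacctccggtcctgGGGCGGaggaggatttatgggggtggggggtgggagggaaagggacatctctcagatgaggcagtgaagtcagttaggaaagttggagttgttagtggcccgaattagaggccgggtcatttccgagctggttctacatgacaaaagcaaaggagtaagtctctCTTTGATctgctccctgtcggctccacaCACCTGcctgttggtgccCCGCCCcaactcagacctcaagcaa
Wnt11: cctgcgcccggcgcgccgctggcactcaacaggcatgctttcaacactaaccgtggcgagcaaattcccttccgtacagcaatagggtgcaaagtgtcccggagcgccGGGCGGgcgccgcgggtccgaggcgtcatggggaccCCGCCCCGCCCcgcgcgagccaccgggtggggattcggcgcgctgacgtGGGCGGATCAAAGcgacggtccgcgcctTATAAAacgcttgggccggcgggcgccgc
Fzd5: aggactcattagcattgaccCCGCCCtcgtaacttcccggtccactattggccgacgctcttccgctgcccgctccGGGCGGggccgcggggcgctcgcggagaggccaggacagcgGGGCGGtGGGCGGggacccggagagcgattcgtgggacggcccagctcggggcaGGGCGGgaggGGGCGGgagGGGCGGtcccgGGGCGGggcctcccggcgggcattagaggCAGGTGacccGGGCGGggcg
The Wnt5b and Wnt11 windows each held 1 CTTTGAT core, on opposite strands. The windows with the core were the ones chosen to be shown, and no other window of either gene held it. The Wnt11 window also held a TATA box, between its core and the start. The Fzd5 window held 9 GC boxes, 1 E-box and no TCF/LEF core, with 32 CpG dinucleotides against a median of 6 over all windows. This is not particular to Fzd5. CpG counts in the windows of the set ran from 4, in 1 window of Wnt5b, to 48 in that of Wnt9a, and the Wnt3a window also held 9 GC boxes. In the Wnt11 window 2 GC boxes overlapped by 1 base. A match of letters is a description and not a binding site.

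Against both ascites taps, tumours on the intestine held more of 5 genes and less of 1. Over all genes tested, 18.3% were called, 12.4% as higher and 5.85% as lower. The 5 higher of the 38 genes are near that share and the 1 lower is below it. The counts alone therefore do not set these genes apart from all genes. The median log2 fold change was -0.83 over the 38 genes and -0.17 over all genes tested. These libraries are the same as in the comparisons above, so the calls are not independent of them.

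Rspo3 stood at 3.78, 2.80 and 4.48 CPM in tumours on the intestine, against the 2 reads in ascites. The ratio was 341, with an exact 95% Poisson interval of 94.5 to 2820, and the adjusted p was 0.000133 in edgeR's quasi-likelihood test. Healthy intestine had 2.31 CPM. Sfrp1 had 13.3, 61.9 and 42.6 CPM on the intestine, all above the highest ascites library, at a log2 fold change of 4.09 ± 0.74 (adjusted p 0.0025 in the edgeR test). Fzd5 was also higher, by 2.1 ± 0.42 on the log2 scale (adjusted p 0.00473), against a lowest of 29.2, a median of 69.6 and a highest of 142 CPM in ascites. These 3 calls held in all 17 alternatives each.

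The remaining calls were weaker. Wnt3, a ligand that Paneth cells supply to crypt stem cells, had 1.68, 1.27 and 2.74 CPM on the intestine and at most 0.383 CPM in ascites, with 1.44 CPM in healthy intestine. Its log2 fold change was 3.70 ± 1.03, adjusted p 0.0274 in edgeR's quasi-likelihood test. Sfrp2 (1.36, 14.2 and 10.8 CPM) overlapped with the ascites range, at a log2 fold change of 2.25 ± 0.69 and adjusted p 0.0412 in the same edgeR test. Fzd7, a Frizzled of gut stem cells, was lower on the intestine, at 21.8, 53.5 and 33.8 CPM against a lowest of 46.2, a median of 134 and a highest of 175 CPM in ascites. Its log2 fold change was -1.73 ± 0.49 (adjusted p 0.0301 in the edgeR test), with tumour on the intestine 2 inside the ascites range. The count of 6 became 3 without second tap 2, second tap 3, tumour on the intestine 2 or tumour on the intestine 3. Each of the Wnt3, Sfrp2 and Fzd7 calls was lost in at least 9 of 17 alternatives. Smooth muscle markers were 26.5 to 178 CPM in ascites and 915 to 1350 on the intestine. Endothelial markers were also higher there, at 106 to 181 CPM against 19.1 to 48.2, as were the 5 T cell markers, at 72.6 to 284 against 2.31 to 18.6. Fibroblast markers overlapped as sums, at 610 to 2460 CPM against 166 to 962. Averaged as log2(CPM + 1) over the 7 genes they did not overlap. That mean was 6.11 to 7.8 on the intestine, 3.65 to 4.48 in the first taps and 4.59 to 5.42 in the second. Macrophage markers were lower on the intestine, at 186 to 507 CPM against 864 to 5490. The part of these cells and of the intestinal epithelium in the 6 calls was not tested.

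No gene of the set was called between tumours on the intestine and healthy intestine, where 0% of all genes were called by edgeR. At an unadjusted p under 0.05 there were 2 genes, Wnt2 and Wnt5b, and DESeq2 called 0. Fzd5 had a log2 fold change of 0.02 ± 0.72 and Wnt2b of -0.38 ± 0.53, both with an adjusted p of 1. Wnt10a had 0, 5.60 and 15.7 CPM in the tumours and 2 reads, 0.103 CPM, in healthy intestine. The ratio of 69 had a counting interval of 19.1 to 570, and tumour 1 was below the healthy library. With 1 healthy library there is no replicate check, and the test assumes that it varies like the other groups. The same holds for each single library below. Shares of all genes at an unadjusted p under 0.05 and in DESeq2 are not given for this effect or for the interaction below. The difference of this effect from that of orthotopic tumours over healthy ovary was tested as an interaction. It gave 0 calls in the set and 0% over all genes, 3 genes at an unadjusted p under 0.05, and 1 call by DESeq2, for Wnt2b. Its log2 difference was 3.54 ± 0.80, with an adjusted p of 0.77 in edgeR's quasi-likelihood test.

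Against the cultured line, orthotopic tumours held more Sfrp1 and subcutaneous tumours also did, and ascites held less Rspo3. No other gene of the set passed. The shares called over all genes were 3.2% for orthotopic tumours (2.37% higher, 0.834% lower), 9.49% for subcutaneous tumours (6.25% higher, 3.23% lower) and 6.2% for ascites (3.84% higher, 2.36% lower). With 1 of 38 genes tested called in each comparison, the set was called no more often, in either direction, than all genes were. Without the 3 libraries that stood apart, 5 genes of the set were called in orthotopic tumours. The share over all genes in that fit is not given here. The line had 1 Sfrp1 read, 0.0265 CPM, against the 53.5, 19.1 and 17.7 CPM of orthotopic tumours and 10.7 and 86.2 CPM of subcutaneous tumours 2 and 3. The ratio was 1140 for orthotopic tumours, with an exact 95% Poisson interval of 204 to 44900, and 1830 for subcutaneous tumours, with 328 to 72200. Adjusted p was 0.0407 and 0.0213 in edgeR's quasi-likelihood test. The call against orthotopic tumours was lost without any 1 of them (adjusted p 0.0616 to 0.0703). Rspo3 in ascites was lower than the 3.47 CPM of the line by a ratio of 321, interval 88.9 to 2650, with an adjusted p of 0.0047 in the edgeR test. In ascites, 2 genes were called instead of 1 without first tap 2, first tap 3 or second tap 2, and 3 instead of 1 were called in subcutaneous tumours without tumour 2.

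Wnt10a had 545 CPM in the line, 7.58, 3.16 and 19.8 in orthotopic tumours and 0.999 and 13.2 in subcutaneous tumours. In ascites the lowest, median and highest were 21.5, 62.2 and 95.4 CPM. Every tumour library was thus below the line, and every ascites library was above every orthotopic tumour. None of these differences passed: log2 fold changes were -5.74 ± 1.61, -6.26 ± 1.93 and -3.23 ± 1.29 against the line, with adjusted p of 0.0737, 0.0613 and 0.158 in edgeR's quasi-likelihood test, and 2.51 ± 1.19 for ascites over orthotopic tumours, with 0.241. Fzd3, singled out after its values were seen, had no read in the line and 6.05, 24.0 and 13.4 CPM in orthotopic tumours. With 3 reads as the floor it was at least 182-fold higher there, 133-fold in ascites and 68.3-fold in subcutaneous tumours, but its adjusted p was 0.0753, 0.0628 and 0.066 in the edgeR test. In all, 9 of the 41 genes had no read in the line, and 22 were above 1 CPM there.

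Healthy ovary was the reference for orthotopic tumours, and 2 ligands were lower in the tumours. The share called over all genes was 0.6%, with 0.591% lower and 0.00882% higher. Wnt2b had 109 CPM in healthy ovary against 5.63, 5.29 and 10.6, a log2 fold change of -3.92 ± 0.49 (adjusted p 0.00794 in edgeR's quasi-likelihood test). Wnt16, a ligand studied in bone and joints, had 11.4 CPM in healthy ovary and 0.285, 0.399 and 0.605 CPM in the tumours, a log2 fold change of -4.72 ± 0.82 (adjusted p 0.0301). Both calls were lost without orthotopic tumour 1 or 2, and the Wnt16 call also without tumour 3. The 4 Müllerian markers summed to 1470 CPM in healthy ovary against 2.23 to 42.2 in the tumours, with 411 against 10 to 118 CPM for the 4 adipocyte markers. The 6 granulosa and steroidogenic markers summed to 2920 CPM in healthy ovary against 571 to 648 in the tumours, and the smooth muscle markers to 626 against 87.1 to 144. Their part was not tested.

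No gene of the set was called between subcutaneous and orthotopic tumours, where edgeR called 0.0132% of all genes. At an unadjusted p under 0.05 there were 8 genes, and DESeq2 called 3, Sfrp5, Wnt3 and Wnt8b, as higher under the skin. The shares of all genes at that unadjusted p and in DESeq2 are not given here. Wnt8b had 0.434 and 4.32 CPM in subcutaneous tumours 2 and 3, and Wnt3 0.347 and 5.25, so tumour 3 carried both. Without tumour 3, edgeR called Fzd9 and Wnt10b as lower in tumour 2, at 0 and 0.261 CPM. The pair differed across the set. Sfrp1 was 10.7 and 86.2 CPM, Rspo1 2.35 and 95.4, and Fzd4 99.1 and 20.3. Tumour 2 also held 1270 CPM of B cell markers and 1560 of adipocyte markers against 4.12 and 7.90 in tumour 3, which in turn had 663 CPM of keratinocyte markers against 46.7. The part of these tissues was not tested.

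Rspo1, Dkk3 and Dkk2, which with Wnt10a complete the 2 most abundant genes of each family, had no call. Rspo1, an ovary-determining R-spondin, had 145, 54.5 and 58.5 CPM in orthotopic tumours and 3.15, 13.0 and 11.2 on the intestine, without overlap (log2 fold change -3.23 ± 1.3, adjusted p 0.111 in edgeR's quasi-likelihood test). In ascites it spread from 5.10 to 126 CPM around a median of 27.4. Dkk3, the Dickkopf that differs most from the others, had 0.106 CPM in the line and 12.7, 24.1 and 23.5 in orthotopic tumours, and in ascites it ranged from 1.93 to 58.2 CPM. Its difference from the line did not pass either (adjusted p 0.136 in the edgeR test). Dkk2 was highest in the line, at 11 CPM, against 4.52, 2.43 and 1.21 in orthotopic tumours. Dkk1, the best known inhibitor of the co-receptors, had 15 reads in all 17 libraries together.

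Other genes of the pathway were read from 4 lists: 13 receptors and their regulators, 15 genes of secretion and further secreted modulators (14 tested), 19 intracellular components and 15 transcriptional targets. Some genes are on more than 1 list. Between ascites and orthotopic tumours, 6 of 15 targets, 4 of 14 secreted modulators, 2 of 13 receptors and 1 of 19 intracellular genes were lower, and none was higher, where 2.67% of all genes tested were lower and 1.84% higher. The single intracellular gene is a share near that background. Some called genes count in more than 1 list: Notum and Apcdd1 as targets and as secreted modulators, and Lgr5 as a target and as a receptor. The median log2 fold changes were -1.30, -0.71, -0.71 and -0.10, against 0.15 over all genes. Axin2, the feedback target most used to read the pathway, had 219, 131 and 99.4 CPM in orthotopic tumours and a lowest of 15.7, a median of 37.4 and a highest of 64.8 in ascites. Its log2 fold change was -1.95 ± 0.48 (adjusted p 0.0421 in edgeR's quasi-likelihood test), and the call was lost in 12 of 17 alternatives. Lgr5, the R-spondin receptor of stem cells, had 76.0, 138 and 51.2 CPM against a lowest of 3.07, a median of 6.82 and a highest of 10.3, a log2 fold change of -3.75 ± 0.68 (adjusted p 0.0128), and the call was lost without orthotopic tumour 2 and with either tap alone. Tcf7 had 129, 101 and 119 CPM against 20.5 to 33.3 in ascites, with a median of 26.1 (adjusted p 0.0146), and that call was lost without orthotopic tumour 1 and with either tap alone. Notum, an enzyme that removes the lipid of Wnts, had 8.93, 8.41 and 4.50 CPM against 0.0548 to 0.612, with a median of 0.26 (adjusted p 0.0298), and its call was lost in 9 of 17 alternatives. Neither gene's groups overlapped. The same cell type markers moved with these genes as with the 5 members above.

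**Figure D5:**
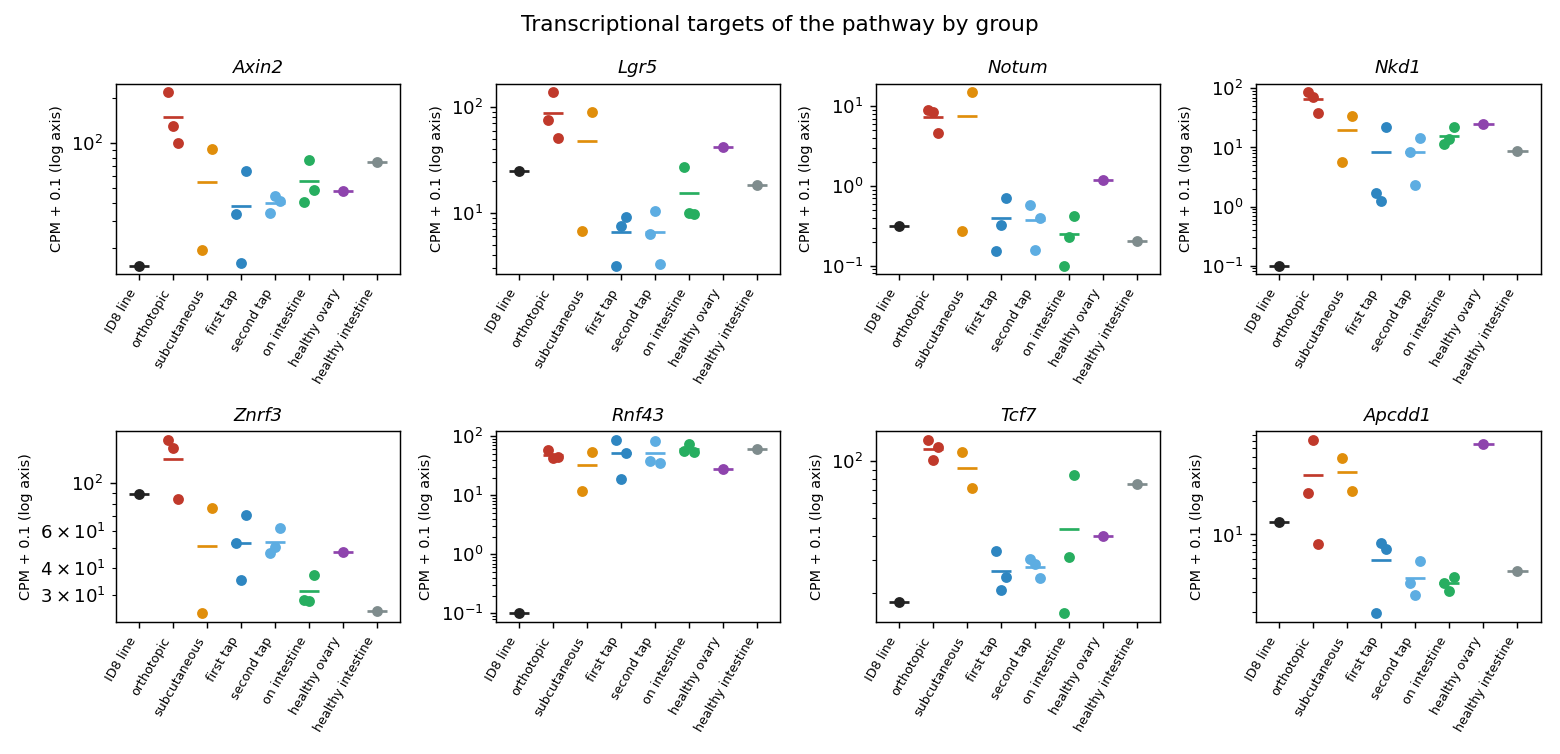
CPM + 0.1 (log axis) of 8 transcriptional targets in each library (points), with bars at the group means and groups along the x axis. Axin2, Lgr5, Notum and Tcf7 are higher in all 3 orthotopic tumours than in all 6 ascites libraries, and Rnf43 and Nkd1 have no reads in the ID8 line.

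On the intestine, against orthotopic tumours, 3 of 15 targets were lower (Notum, Znrf3 and Apcdd1) and none higher, where 5.13% of all genes tested were lower and 10.4% higher. Wls, the carrier that brings Wnts to the cell surface, had 295, 303 and 216 CPM in orthotopic tumours and 57.6, 55.5 and 90.6 on the intestine (log2 fold change -2 ± 0.47, adjusted p 0.0159 in edgeR's quasi-likelihood test). It was 1 of 5 secreted or secretory genes that were lower, of 14, with Notum, Apcdd1, Tpbg and Trabd2b. The Wls call was lost without orthotopic tumour 1 or 2 or without tumour on the intestine 1 or 2 (adjusted p 0.0522 to 0.0713). When each of the 6 libraries was left out in turn, the Notum, Tpbg and Trabd2b calls were kept in 2 fits each, Apcdd1 in 3 and Znrf3 in all 6. Axin2 (adjusted p 0.117) and Lgr5 (0.0617) were not called there. Against ascites, 6 of 19 intracellular genes were higher on the intestine and none lower, where 12.4% of all genes tested were higher and 5.85% lower. Among them were Tcf7l2 (577, 472 and 236 CPM against 142 to 207, adjusted p 0.00829 in the edgeR test) and Csnk1a1 (adjusted p 0.0143). Of these 6, Ctnnb1, Gsk3a and Gsk3b overlapped with the ascites range, and only the Tcf7l2 call was kept in all 17 alternatives. Ror2, a receptor of Wnt5a, had 7.98, 7.55 and 10.2 CPM on the intestine against 0.147 to 0.829 in ascites (adjusted p 0.000259).

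Against the line, the regulator Rnf43 stood out, with no read in culture and 58.4, 42.6 and 44.5 CPM in orthotopic tumours, 11.8 and 54.3 in subcutaneous tumours and 18.8 to 86.3 in ascites, with a median of 45.1. Its adjusted p was 0.0104, 0.00762 and 0.00667 in edgeR's quasi-likelihood test. Gpc3, a glypican, also had no read in the line and was higher in all 3 tumour settings. Nkd1 had no read in the line and 85.7, 72.4 and 37.8 CPM in orthotopic tumours (adjusted p 0.0471), a call that was lost without any 1 of them (0.0717 to 0.0882). Axin2 was at 15.1 CPM in the line, below the other 16 libraries, and was not called (adjusted p 0.094 for orthotopic tumours). Against healthy ovary only Bcl9 of the 4 lists was called, as lower in orthotopic tumours, and that call was lost without any 1 of them (adjusted p 0.116 to 0.163).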

How the data were processed

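Raw counts of reads per gene were deposited by the authors for 17 libraries, and 1 further column that matched no sample was not used. Per the submitters' processing notes, HISAT, HISAT2, featureCounts and DESeq2 were used with the builds mm39 and hg19; versions and the strand setting are not given in the sources used here, so reads of overlapping genes may be shared. Genes and lists were chosen with earlier results of these data known. Groups came from the labels. Counts were scaled by TMM, genes above 0.5 CPM in at least 2 libraries were kept, and all 17 libraries were fitted together with edgeR 4.0.16 in R 4.3.3 (quasi-likelihood test, robust, Benjamini-Hochberg adjustment, 9 residual degrees of freedom). The test was tested on simulated data. Ratios against 1 to 3 reads carry exact 95% Poisson intervals. Lengths are exon unions of GENCODE M21, matched for 41 genes. Promoter windows came from RefSeq GRCm38.p6.

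Values per library are given for genes called in at least 1 comparison and for the 2 genes of each family with the highest mean CPM. From the pathway lists, up to 4 genes per list and comparison were named by smallest p, with Axin2 and Lgr5. Other genes named with values, such as Fzd3, Fzd4, Wnt6 and Wnt8b, were chosen after their values were seen. Alternatives were DESeq2 1.42.0, scaling by library size alone, no filter on low counts, fits of only the groups compared, each tap alone, a replicate block, each library left out, and, chosen after seeing the data, the 3 libraries with many genes left out.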

Additional observations from a re-analysis of the deposited data

How the results depend on the processing

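All counts below are genes of the set called. The shares over all genes in the alternative runs are not given here. Whether a change in count was shared by all genes can therefore not be read from them. None of the 346 alternative values of the 26 calls turned direction; 235 kept their side of the threshold and 111 lost it. Of the 26 calls, 7 held in every alternative run: Rspo3 in ascites against orthotopic tumours, against the line and below tumours on the intestine, Sfrp1 and Fzd5 in tumours on the intestine over ascites, Sfrp1 in subcutaneous tumours over the line, and Wnt5b in tumours on the intestine below orthotopic tumours. DESeq2 called 3 for subcutaneous against orthotopic tumours (edgeR 0), 9 for ascites against orthotopic tumours (5), 17 for intestine against orthotopic tumours (10) and 14 for intestine against ascites (6). Against the line it called 11 for orthotopic tumours, 5 for ascites and 11 for subcutaneous tumours (1 each), and 1 for the difference between the host sites (0). Scaling by library size alone gave 0 for orthotopic tumours against the line and 1 against healthy ovary, and no filter on low counts gave 0 against the line. That scaling moved the median of all genes by up to -0.31 (intestine against orthotopic tumours). Fitting only the groups compared gave 20 for intestine against orthotopic tumours. With the first tap alone, ascites against orthotopic tumours gave 3; with the second alone it gave 1, and intestine against ascites 3. Without the 3 libraries with many genes, a choice made after seeing the data, the counts were 2 for subcutaneous, 11 for ascites and 16 for intestine against orthotopic tumours, and 5 for orthotopic and 3 for subcutaneous tumours against the line. The cause was not tested.

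Leaving out 1 library at a time, the counts ranged from 0 to 2 for subcutaneous against orthotopic tumours, 2 to 7 for ascites against orthotopic tumours, 1 to 9 for intestine against orthotopic tumours and 3 to 5 for intestine against ascites. They were 0 for orthotopic tumours against the line, 1 to 2 for ascites and 1 to 3 for subcutaneous tumours against it, and 0 to 1 against healthy ovary.

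With the replicate number as a block, the counts were 0 for subcutaneous, 5 for ascites and 9 for intestine against orthotopic tumours, 0 between the taps and 4 for intestine against ascites. The correlation of deviations over the 26 same-numbered pairs ran from -0.549 to 0.419, with 7 over 0.1, and in 28 of 52 checks of a library against another group it correlated best with its own number. Since not every pair was over 0.1, the numbers were not taken as pairing. This rule cannot show that no libraries share an animal, and the number of best matches that would arise by chance was not computed. With 2 subcutaneous libraries, the deviations of 1 mirror those of the other, so their correlations are not independent.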

Other observations

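Several Wnt genes lie next to each other in the RefSeq annotation of GRCm38.p6. Of the 41 genes, 4 pairs were neighbours: Wnt3a with Wnt9a, Wnt9b with Wnt3 and Wnt10b with Wnt1, each with no gene between, and Wnt6 with Wnt10a, separated by 2 long non-coding RNA models. Wnt6, chosen after its values were seen, was at 113 CPM in the line and at 63.4, 104 and 31.9 CPM in orthotopic tumours 1 to 3. Per kilobase of exon, Wnt10a was above Wnt6 in the line, and Wnt6 was above Wnt10a in each of these 3 tumours.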
